A study of Arabidopsis thaliana with 2 samples.

Results

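PRR7 (AT5G02810) encodes PSEUDO-RESPONSE REGULATOR 7, a component of the Arabidopsis circadian clock. It was chosen by the authors' listing of its splicing events: PRR7 accounts for 2 of the 343 events in the 5 deposited tables and for 1 of their 281 genes. Both events are in the exon skipping table, which holds 27 events in 22 genes, and no PRR7 event is listed in the tables of alternative 5′ splice sites, alternative 3′ splice sites, intron retention or mutually exclusive exons. An exon skipping event counts the reads that include an alternative exon (inclusion reads) and the reads that join its neighbours directly (skipping reads). Since the listing rests on the contrast of lefko mutant against wild type, the read counts below describe that contrast and were not tested again.

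The samples were cotyledons, the seed leaves, of seedlings grown in long days on half-strength medium with sucrose. The control is the Col-0 wild type and the other genotype is lefko, a mutant of the same ecotype. There is 1 sample of each genotype, with 3 sets of counts per event. It is not stated whether the sets came from separate plants, libraries or runs. Each SD and SE below therefore rests only on the spread between these sets. The tables and the extraction protocol write lefko1 where the sample title has lefko2, and the sample source reads seeds rather than cotyledons. Nothing in the sources used here gives the mutated gene, the nature of the allele, the age of the plants or the hour of harvest. The tables hold no expression level per gene, so the labelled tissue was not checked against marker genes.

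The plant clock is a network of transcriptional repressors that act at successive times of day. The morning factors CCA1 and LHY are repressed in turn by the pseudo-response regulators PRR9, PRR7 and PRR5, which accumulate one after the other through the day, and by TOC1 in the evening. PRR7 acts with its close relative PRR9 in setting the period of the clock and its response to temperature. The proteins of this family carry a pseudo-receiver domain near the N terminus, which resembles the receiver of bacterial response regulators but lacks its phosphorylated residue, and a CCT motif at the C terminus, through which they associate with DNA. Alternative splicing of clock transcripts, PRR7 among them, is known from studies of temperature in Arabidopsis. Transcripts in which a stop codon comes well before a later exon junction can be degraded by nonsense-mediated decay.

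PRR7 lies on the minus strand of chromosome 5, from 637681 to 642030 (TAIR10.1). RefSeq annotates 2 transcripts, one of 9 exons and one of 8, in which intron 3 of the former is retained. Both listed exons lie within intron 5 of the 9-exon transcript, between exon 5 (chr5:640286-640450) and exon 6 (chr5:639819-639993), and neither is an exon of either annotated transcript. The longer exon spans chr5:640085-640202 and has 118 nt. The shorter exon spans chr5:640156-640202 and has 47 nt. They begin at the same 3′ splice site and end at different 5′ splice sites, so the shorter exon is the first 47 nt of the longer one, and 71 nt belong to the longer exon alone. Intron 5 has 292 nt, the longest of the 8 introns, the others having from 97 to 255 nt. Use of either exon leaves an intron of 83 nt before it, and an intron of 91 nt after the longer exon or of 162 nt after the shorter one. No other annotated gene overlaps intron 5 on either strand.

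The whole of intron 5 is shown because it holds every splice site of both events. It reads 5′ to 3′ on the strand of the gene (chr5:639994-640285), with the 118 nt of the longer exon in capitals.
Intron 5: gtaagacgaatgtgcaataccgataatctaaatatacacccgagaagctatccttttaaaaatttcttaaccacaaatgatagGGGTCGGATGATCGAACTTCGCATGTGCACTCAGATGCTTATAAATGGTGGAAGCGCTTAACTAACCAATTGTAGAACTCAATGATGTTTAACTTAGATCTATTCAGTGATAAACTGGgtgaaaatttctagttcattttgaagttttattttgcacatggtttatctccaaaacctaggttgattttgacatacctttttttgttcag
Within the longer exon, capitals below mark the 47 nt that it shares with the shorter exon.
Longer exon: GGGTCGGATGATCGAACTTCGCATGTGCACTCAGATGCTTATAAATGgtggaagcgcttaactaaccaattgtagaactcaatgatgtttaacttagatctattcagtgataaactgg

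**Figure D1:**
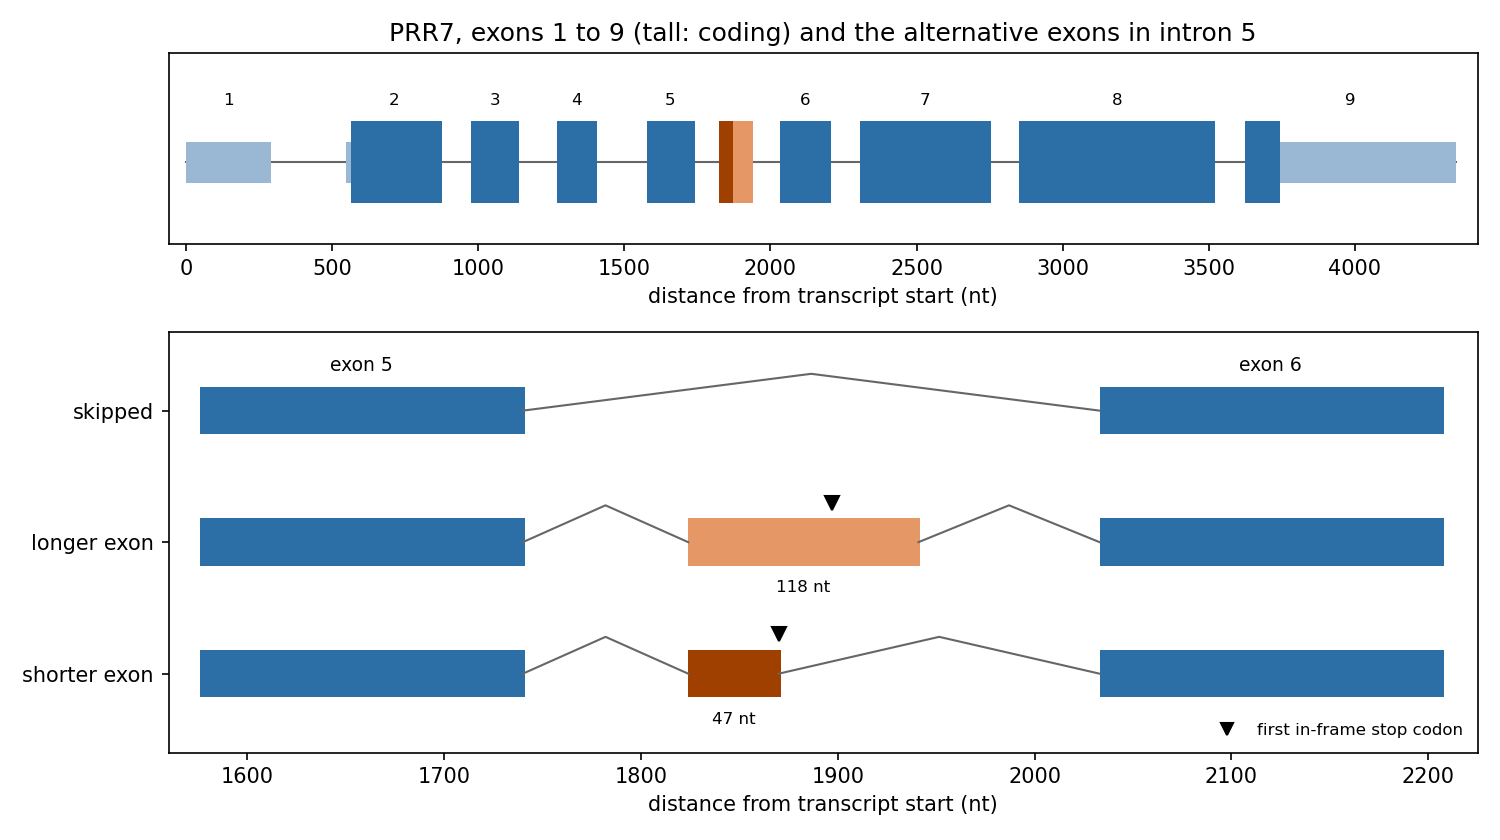
The upper panel draws the 9-exon transcript of PRR7 along the distance from its start in nt, with coding sequence tall and the 2 alternative exons in intron 5 in brown (47 nt that both share) and orange (71 nt of the longer exon alone). The lower panel enlarges exons 5 and 6 with the form that skips both exons and the forms with the longer (118 nt) and the shorter exon (47 nt), and triangles mark the first in-frame stop codon, which falls in or at the end of each alternative exon.

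Neither exon keeps the reading frame. The lengths of 118 nt and 47 nt leave remainders of 1 and 2 nt after division by 3. Translation of the annotated 9-exon transcript gives 727 codons before its stop codon, and 257 of them end exactly with the last base of exon 5. With the longer exon inserted, the frame runs for 24 new codons and reaches a TAG stop at base 73 of the exon, so that 281 codons precede the stop. With the shorter exon, 15 new codons follow, and a TGA stop is made across the junction, from the last 2 bases of the alternative exon and the first base of exon 6, after 272 codons. In both forms 35.4% of the annotated codons would be translated. From their places near the N terminus and at the C terminus, the pseudo-receiver domain would be encoded upstream of intron 5 in this transcript and the CCT motif downstream of both stops. Domain positions were not mapped here.

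The stop codons are shown in place, in capitals. The first sequence is the longer exon alone, and the second is the shorter exon followed by the first 10 bases of exon 6.
Longer exon: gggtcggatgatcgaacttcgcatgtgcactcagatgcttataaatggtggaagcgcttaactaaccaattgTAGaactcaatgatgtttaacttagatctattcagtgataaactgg
Shorter exon with exon 6: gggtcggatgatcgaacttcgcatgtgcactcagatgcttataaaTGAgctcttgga
The stop used in the longer form lies in the 71 nt that the shorter exon lacks, so the 2 forms end at different codons. After the stop, 4 exon junctions follow in the longer form, the nearest 43 nt and the last 1336 nt downstream. In the shorter form 3 junctions follow, from 174 nt to 1292 nt downstream. The second annotated transcript, which starts its coding sequence later, has the same frame at the end of exon 5. Inserting the exons there gives the same stop codons, after 137 codons with the longer exon and 128 with the shorter, of 583 annotated. Retention of the whole of intron 5 would also end the frame, after 47 new codons, although no such event is listed. Only events past the authors' threshold are listed, so retention below it would not be seen. Both exons lie within intron 5. If reads within an exon count, reads from an unspliced intron 5 would therefore add to the inclusion reads of both events. The part of such reads was not tested. These frames assume that the rest of each transcript is spliced as annotated.

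The longer exon was included in about as many raw reads as skipped it in wild type, and in more raw reads than skipped it in the mutant. Equal reads need not mean equal use, since the counting rule is not stated and an included exon may be counted over 2 junctions. Inclusion reads of the longer exon numbered 74, 60 and 65 in the 3 wild-type sets and 172, 210 and 205 in the 3 mutant sets. Every mutant set lay above every wild-type set, with a ratio of summed reads of 2.95. Inclusion reads of every mutant set exceeded those of every wild-type set in 17 of all 27 exon skipping events (63.0%). The inclusion share, inclusion reads over inclusion plus skipping reads, was 52.1%, 44.4% and 51.6% in wild type and 71.4%, 70.9% and 78.5% in the mutant. The means were 49.4% ± 4.28 and 73.6% ± 4.27 (SD, 3 sets each), a difference of 24.2 percentage points (SE 3.49). The lowest mutant set lay 18.8 points above the highest wild-type set. The shares of the 2 genotypes were likewise without overlap in 25 of the 27 exon skipping events (92.6%). Those 27 events were listed for differing in this contrast, so the percentages give context and say nothing particular about PRR7.

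The shorter exon had fewer raw inclusion reads than the longer one in every set. Which exon was used more is not settled by this, since the order turns when inclusion reads are divided by exon length. In units of 100 nt, the share of the shorter exon is then 53.9% in wild type and 74.3% in the mutant. For the longer exon it is 45.3% and 70.3%. Skipping reads were not divided, so these levels depend on the unit, while the order of the exons does not. Raw inclusion reads of the shorter exon numbered 42, 30 and 41 in wild type and 86, 112 and 87 in the mutant, again with no overlap. The ratio of summed reads was 2.52. The inclusion share was 38.2%, 28.6% and 40.2% in the wild-type sets and 55.5%, 56.6% and 60.8% in the mutant sets. The means were 35.6% ± 6.21 and 57.6% ± 2.83 (SD, 3 sets each), a difference of 22.0 points (SE 3.94), and the lowest mutant set lay 15.3 points above the highest wild-type set. In the authors' deposited table the adjusted p was 1.09e-04 for the longer exon and 0.0216 for the shorter, the 6th lowest and, with a tie, the 18th lowest among the 27 events. The highest adjusted p listed in that table was 0.0466 in the exon skipping class and 0.0491 over all classes. Events beyond these values are not analysed here.

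The skipping reads, by contrast, had about the same level in both genotypes. They numbered 68, 75 and 61 in wild type and 69, 86 and 56 in the mutant, so the mutant sets spanned the wild-type range on both sides. Their means were 68.0 ± 7.0 and 70.3 ± 15 (SD, 3 sets each), with a ratio of 1.03. These are the same reads for both events, since both exons are skipped by the same junction of exon 5 to exon 6. For each skipping read there were 0.975 inclusion reads of the longer exon in wild type and 2.78 in the mutant, and 0.554 and 1.35 of the shorter. Read counts are not scaled to library depth, which the tables do not give, so a ratio of reads between genotypes carries any difference in depth or in PRR7 transcript level. The inclusion share does not depend on depth, nor on a change in transcript level that is common to all forms. In bulk RNA, a change within cells and a change in the mix of cells cannot be told apart.

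**Figure D2:**
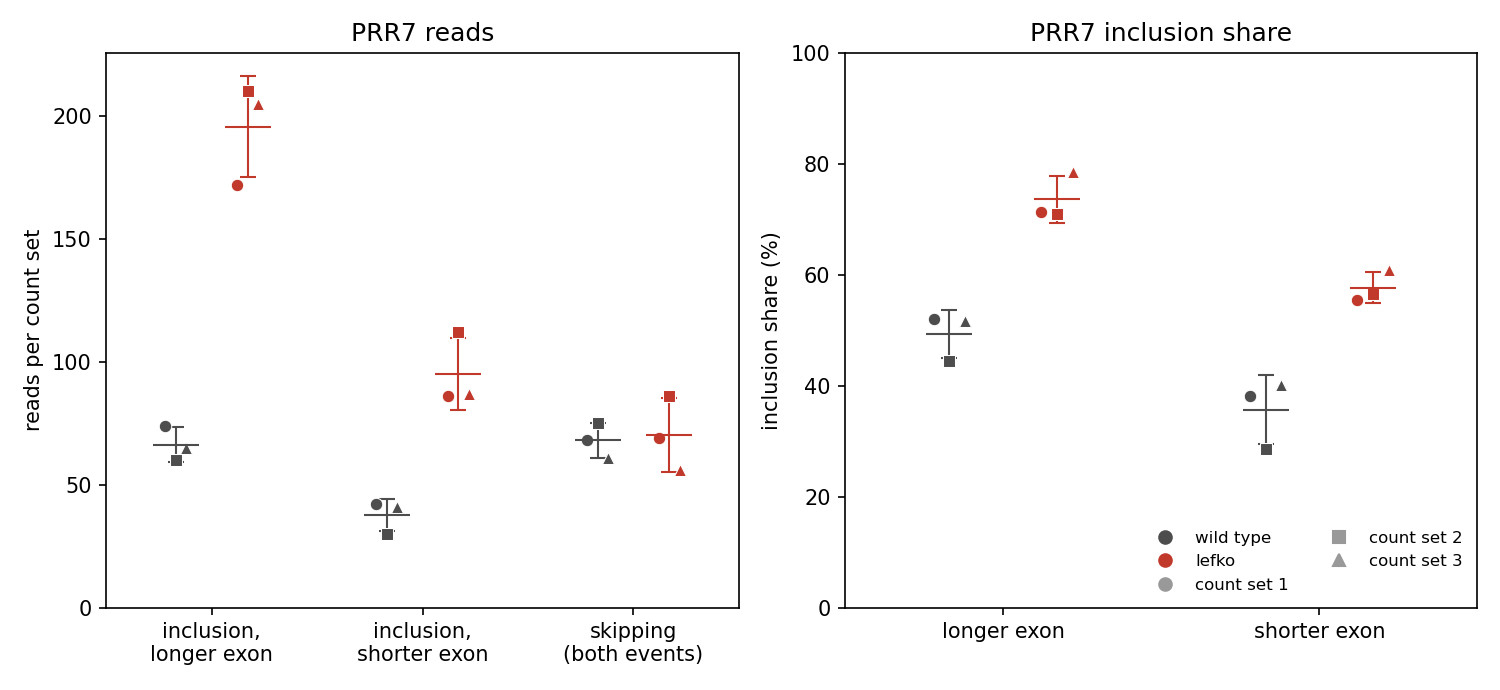
Left, reads per count set for inclusion of the longer exon, inclusion of the shorter exon and skipping of both, and right, the inclusion share in percent, in wild type (grey) and lefko (red), with symbols for the 3 count sets, horizontal lines for means and bars for SD. Inclusion reads of the longer exon sit at 60 to 74 in wild type and 172 to 210 in the mutant, while skipping reads overlap at 61 to 75 and 56 to 86.

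The depth at PRR7 sets the precision of these shares. Each wild-type set held 126 to 142 reads for the longer exon and 102 to 110 for the shorter, and each mutant set 241 to 296 and 143 to 198. Over summed reads, the share of the longer exon was 49.4% in wild type, from 403 reads (exact 95% binomial interval 44.4% to 54.4%), and 73.6% in the mutant, from 798 reads (70.4% to 76.6%). For the shorter exon it was 35.6% of 317 reads (30.4% to 41.2%) and 57.5% of 496 reads (53.0% to 61.9%). These intervals cover counting error only. Counting error alone would give SDs between sets of 4.32 points in wild type and 2.71 in the mutant for the longer exon, against 4.28 and 4.27 observed. For the shorter exon it would give 4.66 and 3.88, against 6.21 and 2.83. Over all listed events the sets of a genotype differed more than counting error, with a chi-square per degree of freedom of 3.32 in wild type and 3.50 in the mutant, so they were treated as separate sets.

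Both PRR7 events share more than the skipping junction. The junction from exon 5 to the common 3′ splice site belongs to both exons, and so do the first 47 nt, so a read across them fits either event. No source used here states the counting rule. The inclusion reads of the 2 events may therefore overlap and were not added together. Reads that count in both events cancel in their difference, which leaves the reads of the longer form alone minus those of the shorter form alone. That difference was 32, 30 and 24 reads in wild type and 86, 98 and 118 in the mutant, with means of 28.7 ± 4.16 and 101 ± 16.2 (SD, 3 sets each). It was above 0 in every set, and the summed difference was 3.51 times as large in the mutant. If reads within an exon count, the bases of the longer exon alone add to this difference. Its sign thus does not settle which form was used more. The ratio of 3.51 also carries any difference in depth or in PRR7 transcript level. The ratio of longer to shorter inclusion reads was 1.76, 2.00 and 1.59 in wild type and 2.00, 1.88 and 2.36 in the mutant. These ratios averaged 1.78 ± 0.208 and 2.08 ± 0.250 and overlapped between genotypes. Any reads that count in both events draw such a ratio toward equal counts, to an extent that is not known here. A shift between the 2 exons could therefore be hidden, and these ratios do not settle whether it occurred. For the same reason, more inclusion reads of the shorter exon in the mutant do not show that the shorter form itself was used more. Reads of the longer form may be counted among them, so the 2 events are not separate evidence.

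Of the 22 genes with exon skipping events, 5 had a pair of overlapping events, and in each of the 5 pairs both events had identical skipping reads. The longer exon had more inclusion reads in PRR7 and in the ARM repeat gene AT5G06120, where the ratio of longer to shorter was 2.15 in wild type and 2.11 in the mutant for exons of 88 and 30 nt. It had fewer in the SR protein gene SR34a (0.907 and 0.791), in AT4G08460 (0.873 and 0.925) and in the SWAP domain gene AT5G55100 (0.626 and 0.736). More reads for the longer exon were thus not general in this table. PRR7 and AT5G06120 also had the largest ratio of exon lengths among the 5 pairs, 2.51 and 2.93, against 1.09 to 1.48 in the others. The part of exon length in these read counts was not tested.

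The splice sites of the PRR7 exons differed in sequence from those of the intron around them. They are shown 5′ to 3′ with the first or last 2 intron bases in capitals, the 5′ sites with 3 exon and 6 intron bases and the 3′ sites with 15 intron bases and 1 exon base.
5′ site of exon 5: cagGTaaga
5′ site of the longer exon: tggGTgaaa
5′ site of the shorter exon: atgGTggaa
3′ site of both alternative exons: aaccacaaatgatAGg
3′ site of exon 6: cctttttttgttcAGa
All 3 of the 5′ sites have GT and both 3′ sites have AG. Each site was scored by its summed log2 odds against the base frequencies at 131098 annotated introns of nuclear protein-coding genes. The 3′ site shared by both alternative exons scored -0.17, at percentile 1.54 of annotated sites, and was below all 8 annotated 3′ sites of PRR7, which ranged from 4.90 to 10.74. Of the 13 intron bases shown before its AG, 5 are pyrimidines. The 3′ site of exon 6 has 12 pyrimidines of 13 and scored 9.88 (percentile 85.2).

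The 5′ site of the longer exon scored 2.92 (percentile 5.0) and that of the shorter exon 2.22 (percentile 3.23), against an annotated median of 6.93. The 5′ site of exon 5, which is used whether an alternative exon is included or skipped, scored 10.79 (percentile 98.5). It was the highest of the 8 annotated 5′ sites of PRR7. The lowest of the annotated 5′ sites, that of intron 3, scored 2.72 (percentile 4.43), just under the longer exon and above the shorter. Intron 3 is the intron that the second annotated transcript retains. By base composition the longer exon lay between intron and exon, with 39.8% G and C, against 32.5% in the 83 nt before it and 29.7% in the 91 nt after it. The 8 annotated introns of PRR7 had from 29.6% to 38.6%, and the annotated exons that are coding throughout, exons 3 to 8, had from 40.3% to 46.3%. The 47 nt of the shorter exon had 46.8%. These scores describe sequence and do not measure how often a site is used.

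**Figure D3:**
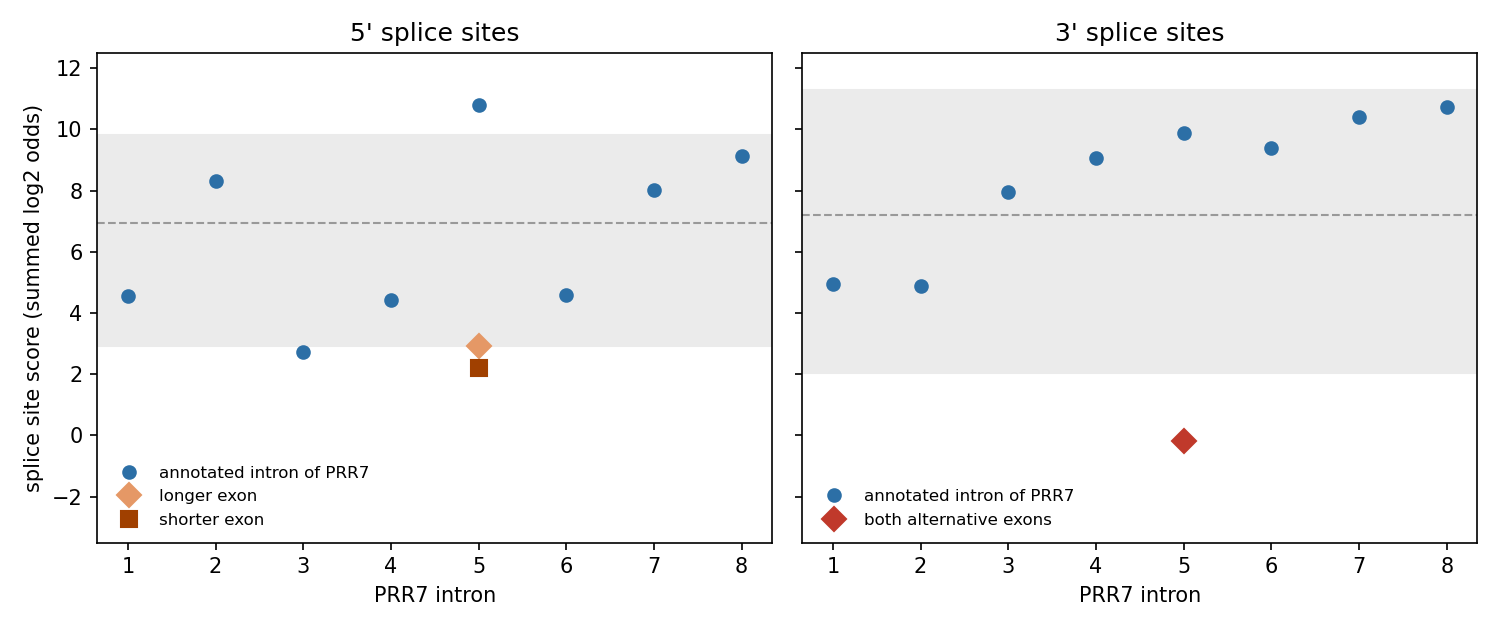
Splice site scores (summed log2 odds) of the 8 annotated introns of PRR7 (blue) and of the alternative exons in intron 5 (orange, brown and red), for 5′ sites on the left and 3′ sites on the right. The grey band spans the 5th to 95th percentile of 131098 annotated introns and the dashed line their median, and the 3′ site of both alternative exons, at -0.17, lies below the band.

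Among exon skipping events as a class, the PRR7 exons had a higher share in the mutant, as did 24 of all 27 (88.9%). With at least 20 reads in each of the 6 sets, 18 events in 14 genes were left, of which 17 were higher and 1 lower, and the longer and shorter exons of PRR7 had the 5th and 8th largest differences. The median difference of the 16 such events in other genes was 17.1 points. Inclusion reads were 2.95 and 2.52 times as many in the mutant for the 2 PRR7 exons, against a median of 2.24 in the other 16 events. Skipping reads were 1.03 times as many, against a median of 0.923 (range 0.156 to 3.64). More inclusion reads in every mutant set together with overlapping skipping reads were found in both PRR7 events and in 12 of those 16. PRR7 thus sat within the spread of the class in each of these measures.

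**Figure D4:**
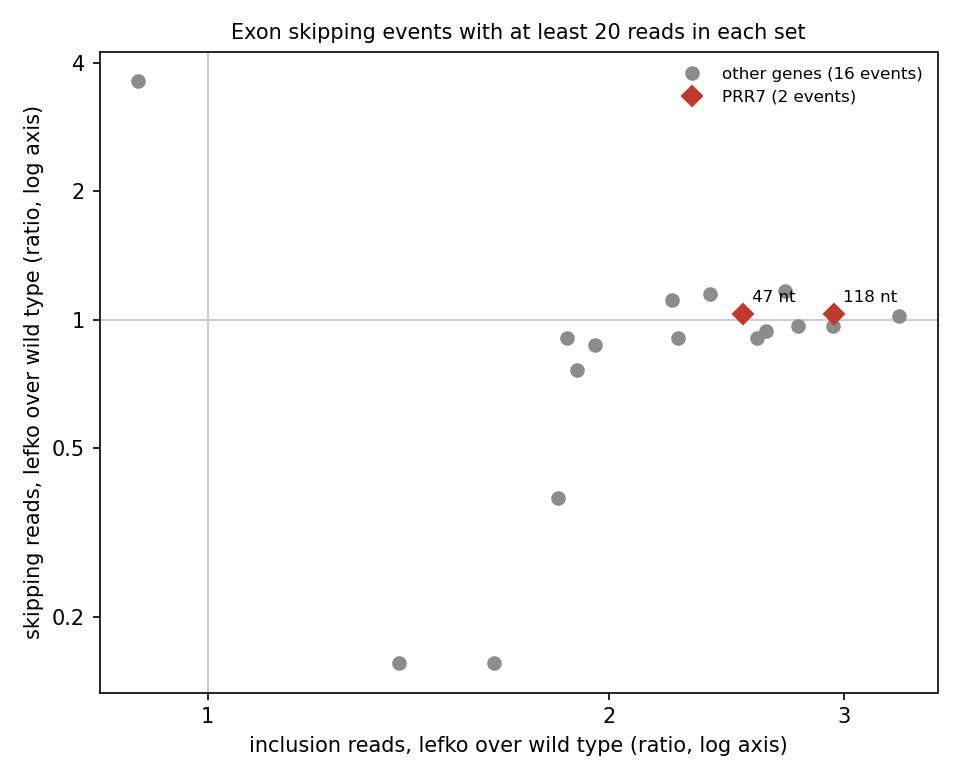
Ratio of summed inclusion reads (horizontal) and of summed skipping reads (vertical), lefko over wild type, on log axes, for the 18 exon skipping events with at least 20 reads in each count set. The PRR7 events (red diamonds) sit at 2.52 and 2.95 on the horizontal axis and at 1.03 on the vertical one, among most of the 16 events of other genes (grey).

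The 3 events of other genes with a difference nearest to the mean of the PRR7 events were in AT1G13350, SR34a and AT1G10610. AT1G13350, which encodes a protein kinase, went from 50.7% to 74.1%, a difference of 23.5 points. The 245 nt exon of SR34a, a serine/arginine-rich splicing factor gene, went from 34.9% to 57.1%, a difference of 22.2 points. AT1G10610, which encodes a basic helix-loop-helix protein, had shares of 73.2% and 97.2%, which differ by 24.0 points, with as few as 10 reads in a set. The likeness was measured on that difference alone.

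A length that is no multiple of 3 was common in the class, as was an early stop where the junction is coding. Exon length was no multiple of 3 in both PRR7 events and in 19 of 25 events of other genes. In 14 events, those of PRR7 included, the skipping junction lies within the coding sequence of an annotated transcript, and inserting the exon gave a stop codon before the annotated one in all 14. Of these, 11 also shift the frame and 3 have a length that is a multiple of 3. In the other events the skipping junction lies outside coding sequence (8) or is not annotated (5). The exact exon was annotated in an mRNA of the gene in 15 of 27 events, none of them in PRR7. The skipping junction of PRR7 is in both of its annotated transcripts.

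None of the 19 other clock genes considered had a listed event in any class, against 275 of 27444 nuclear protein-coding genes (1.00%), a share at which a count of 0 among so few genes says nothing particular about the clock. They were CCA1 and LHY, the MYB-like repressors of the morning, with the related activators RVE4, RVE6 and RVE8 and their coactivators LNK1 and LNK2. The pseudo-response regulators TOC1, PRR3, PRR5 and PRR9 and the evening complex genes ELF3, ELF4 and LUX were also not listed, nor were GI, the F-box protein genes ZTL, FKF1 and LKP2, or the TCP factor gene CHE. All 20 identifiers, PRR7 included, matched the reference annotation. Since the tables hold only events past the authors' threshold, they do not show whether these genes were spliced alike in both genotypes or were covered by too few reads.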

How the data were processed

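The submitters' processing notes name HISAT2 2.0.4 and the genome build TAIR10. No source used here states which program called the events or how it counted. The 5 deposited tables, 1 for each kind of event, give inclusion and skipping counts, an unadjusted p-value and its FDR, per the file headers. A count cell has 3 whole numbers, taken here as 3 count sets of that genotype. The FDR is under 0.05 in all 343 rows.

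PRR7 and the lists used were chosen with earlier results of these data known. Starts in the tables were raised by 1, since 852 of 1038 exon entries then matched an exon of an annotated mRNA exactly (1 matched as deposited). The reference was RefSeq TAIR10.1, whose sequence versions are those in the tables. Shares are means over the 3 sets. Frames were read from the annotated start codon through spliced exons. The site score used 3 exon and 6 intron bases at 5′ sites and 15 intron bases and 1 exon base at 3′ sites, with 0.5 added to base counts and introns of at least 20 nt, and was tested on sequences drawn with seed 1. Genes named beside PRR7 are those of pairs, of the 20 clock genes and the 3 events nearest in difference. Alternatives were summed reads, inclusion reads divided by 2 or by exon length in units of 100 nt, leaving out each set and the set number as a block. Python 3.11.15, NumPy 2.4.6, pandas 2.3.3, SciPy 1.17.1, Biopython 1.88 and matplotlib 3.10.9 were used.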

Additional observations from a re-analysis of the deposited data

How the results depend on the processing

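The difference in inclusion share kept its direction under each alternative tried. None could have reversed it: the shares did not overlap between genotypes, and each division was the same for all sets of an event. Only the size of the difference could change. It was 24.2 points for the longer and 21.8 for the shorter exon on summed reads, 25.5 and 18.7 with inclusion reads divided by 2, and 25.0 and 20.4 with inclusion reads divided by exon length. Leaving out each count set gave 21.8 to 25.6 points for the longer exon and 18.4 to 24.3 for the shorter. The level of the shares did depend on the counting rule: with inclusion reads divided by 2, as for an exon counted over 2 junctions, wild type and mutant had 32.9% and 58.4% of the longer exon, and 21.8% and 40.5% of the shorter. With inclusion reads divided by exon length, an alternative for the levels chosen after seeing the data, they had 45.3% and 70.3% of the longer exon and 53.9% and 74.3% of the shorter, so the order of the exons turned in both genotypes. Skipping reads were not divided, so these levels and the differences after this division depend on the unit of 100 nt. Leaving out each set gave 48.0% to 51.8% and 71.2% to 75.0% for the longer exon, and 33.4% to 39.2% and 56.0% to 58.7% for the shorter. With the set number as a replicate block the differences were again 24.2 and 22.0 points, with SEs of 2.49 and 3.16, but the labels do not say that equal numbers pair the sets. At this depth, counting error alone would give SDs between sets of 2.71 to 4.66 points over both exons and genotypes, against 2.83 to 6.21 observed. No event of PRR7 that missed the authors' threshold could be seen.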
